A study of Mus musculus with 4 samples.

Results

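Wnt4, Wnt5a, Wnt5b, Rspo3, Lrp5, Lrp6, Axin2, Tcf7, Tcf7l2 and Lef1 are 10 genes of the Wnt pathway among the 31053 genes of the count matrix. They were chosen by name, as secreted ligands, co-receptors, a feedback gene and nuclear Tcf/Lef factors, with earlier results of these data known. All 10 were found in the matrix. They are described here across cell types defined by other genes. The cells came from the proximal and distal tibia of 1 male mouse at postnatal day 6 (P6), with 2 tibiae put together in 1 10x library. Its genotype was Col10a1Cre;Rosa26-Tdtomato;Irx3 +/Δ;Irx5 +/-, the heterozygous control for Irx3 and Irx5. Col10a1Cre acts in hypertrophic chondrocytes (HCs), and its reporter is meant to mark HCs and the cells derived from them. The study's methods describe the Irx3 deletion as made in HCs, whereas Irx5 +/- applies to every cell, so HC origin and the loss of 1 Irx3 copy cannot be told apart in these cells. No group without the Irx3 and Irx5 alleles was analysed here. The 4 sequencing entries of the library were counted together, so no barcode could be traced to an entry.

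Wnt proteins bind Frizzled receptors together with the co-receptors Lrp5 or Lrp6. This stops the breakdown of β-catenin, which enters the nucleus and works with Tcf/Lef factors on target genes such as Axin2, while Wnt5a and related ligands also act through receptors that do not need β-catenin. R-spondins such as Rspo3 keep Frizzled receptors at the cell surface. In the growth plate and in bone the pathway is known for its part in chondrocyte maturation, in the choice between the chondrocyte and osteoblast fates and in bone mass, where loss of Lrp5 leads to fragile bone.

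For orientation, stretches of genome before the start of Wnt4, Wnt5b and Axin2 are shown 5′ to 3′. Wnt4 and Wnt5b had the most alike profiles over the cell types among the 10 genes, and Axin2 is a standard target of Tcf/Lef factors. RefSeq promoter entries of GRCm38.p6, 250 bases before to 50 after a start, matched 6 of the 10 genes (Wnt4, Wnt5b, Axin2, Tcf7, Tcf7l2 and Lef1) with 13 entries. Each stretch lies outside the gene in GENCODE M21, and lower case means that no Tcf/Lef motif was found.
Wnt4, chr4:137277385-137277488, plus strand: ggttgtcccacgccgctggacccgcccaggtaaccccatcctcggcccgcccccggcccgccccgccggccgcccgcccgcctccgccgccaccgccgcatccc
Wnt5b, chr6:119544348-119544597, minus strand: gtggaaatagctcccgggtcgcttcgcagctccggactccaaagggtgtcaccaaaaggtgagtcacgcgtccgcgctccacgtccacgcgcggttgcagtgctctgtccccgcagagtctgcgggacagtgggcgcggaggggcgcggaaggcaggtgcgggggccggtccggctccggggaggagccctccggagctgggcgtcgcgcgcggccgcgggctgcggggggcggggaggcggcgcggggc
Axin2, chr11:108920099-108920348, plus strand: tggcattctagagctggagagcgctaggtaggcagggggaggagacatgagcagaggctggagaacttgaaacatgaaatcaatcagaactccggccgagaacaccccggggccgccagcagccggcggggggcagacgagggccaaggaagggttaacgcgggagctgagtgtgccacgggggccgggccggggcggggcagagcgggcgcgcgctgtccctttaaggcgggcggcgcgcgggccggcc
Each of 4 motifs was searched on both strands of the 250 bases before each start.
Motif ending in AA: CTTTGAA
Motif ending in AT: CTTTGAT
Motif ending in TA: CTTTGTA
Motif ending in TT: CTTTGTT
They share their first letters, so no 2 of them match at the same place on a strand. Of 32851 RefSeq promoter entries 4874 (14.8%) held a match, and 3 of the 13 entries of these genes did. The matches, in capitals, lay in introns before inner start sites of Lef1, Tcf7l2 and Wnt5b.
Lef1, chr3:131156137-131156163, plus strand: aacctcagaaTACAAAGtaggattgca
Tcf7l2, chr19:55895297-55895320, plus strand: aaatatcaggCTTTGTTcttttga
Wnt5b, chr6:119449441-119449467, minus strand: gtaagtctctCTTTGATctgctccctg
A match here is a run of letters and nothing more, because counts per gene do not tell which start site was used.

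Of 14181 barcodes, 8256 cells were kept, with a median depth of 13957.5 UMIs (tags that count each captured transcript once) and 3300.5 genes. Clustering left out the genes described here and the other Wnt genes of the lists below. It gave 29 clusters, 26 of which took 1 of 20 class names from marker genes. The other 3, with 417 cells, mixed leukocyte or red cell genes with Col2a1 and were left unnamed. Chondrogenic cells (1904) comprised resting, maturing, proliferating, pre-hypertrophic (pre-HC) and HC-like classes, with Col2a1, the main cartilage collagen, between 9802 CPM in HC-like and 52586 CPM in pre-HC-like cells. CPM is the number of UMIs of a gene for every 1000000 UMIs of the class. Osteogenic cells (1211) comprised stromal progenitor-like, immature osteoblast-like and mature osteoblast-like classes. Among the markers used for naming, Col10a1 was 11270 CPM in HC-like and at most 876 CPM elsewhere. Bglap, the osteocalcin gene, was 10816 CPM in mature osteoblast-like and at most 722 CPM elsewhere. Since both were on the naming lists, these levels describe the classes and are no separate check of the names. A single library has no replicates, and hence no comparison here carries a p-value. CPM values have 95% exact Poisson intervals, which cover counting error only, and levels were called apart only where these intervals did not overlap. A level called highest is the largest value, and its interval may overlap the next. Intervals of log2 ratios are a normal approximation from the same counting error, which is rough where UMIs are few. Erythroid-like cells serve as 1 reference for RNA picked up from other cells. They held 77 UMIs of Lrp6 (9.56 CPM), 50 of Tcf7l2 and 36 of Lef1, and whether they express some of these genes themselves was not tested. The level of picked-up RNA was not common to all classes, as Col2a1 ranged from 299 CPM in basophil or mast-like to 4704 CPM in T or natural killer-like cells.

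Wnt4 (ENSMUSG00000036856, chr4:137277489-137299726, plus strand of mm10) encodes a secreted Wnt ligand. It was highest in pre-HC-like cells at 398 CPM (387 to 409), followed by maturing chondrocyte-like cells at 214 CPM (207 to 221). Proliferating and resting chondrocyte-like cells held 130 and 128 CPM, with overlapping intervals. Immature osteoblast-like cells held 114 CPM (106 to 121), above stromal progenitor-like cells at 92.9 CPM (82.4 to 104). HC-like cells, at 72.1 CPM (63.5 to 81.5), could not be told from mature osteoblast-like cells at 59.5 CPM (54.4 to 65.0). Every chondro-osteogenic class lay above the 8.19 CPM of erythroid-like cells, while B lineage-like cells held 3.39 CPM and the 30 T or natural killer-like cells 48.5 CPM (25.1 to 84.8). Cells differed in depth, with a median of 29189 UMIs in pre-HC-like, 33055 in HC-like, 15245 in resting chondrocyte-like and 12874 in erythroid-like cells, so shares of cells were also read after thinning each cell to 5000 UMIs, which left out 1, 0, 3 and 0 cells. A Wnt4 UMI was kept by 72.8% (68.2 to 77.1, exact binomial) of pre-HC-like, 31.1% (27.1 to 35.3) of resting chondrocyte-like, 17.8% (11.0 to 26.3) of HC-like and 3.80% (2.34 to 5.81) of erythroid-like cells. Before thinning these shares were 93.3%, 49.5%, 52.3% and 11.8%. HC-like cells thus stood between resting chondrocyte-like and erythroid-like cells once depth was made equal. Since RNA from cartilage would carry Col2a1 along, Wnt4 was also set against it. There were 2.47 to 7.57 Wnt4 UMIs per 1000 Col2a1 UMIs in the chondrogenic classes, 7.35 in periosteal or tendon fibroblast-like cells and 4.01 (B lineage-like) to 16.7 (erythroid-like) in the blood and vessel classes. The mature osteoblast-like class as a whole, with 21.4, lay not far above that range, whereas the ratio was 166 in stromal progenitor-like and 244 in immature osteoblast-like cells. The mature class, however, held 19 cells of a chondrocyte-led sub-cluster (described below) with 27579 CPM of Col2a1 and 158 CPM (130 to 191) of Wnt4. They enter the class level of 59.5 CPM, and its overlap with HC-like cells was not examined without them. A Bglap-led sub-cluster of 248 cells, nearly all from the mature class, held 478 CPM of Col2a1 and 58.3 CPM (51.7 to 65.5) of Wnt4. That Wnt4 interval overlaps the one of HC-like cells. Erythroid-like cells, with a like Col2a1 level of 490 CPM, held 8.19 CPM of Wnt4. The ratio of 21.4 thus covers unlike cells and does not describe the Bglap-led ones. It was not computed without those 19. The resting class was not uniform: its Krt16-led cluster held 145 CPM (136 to 154) of Wnt4 and its Penk-led cluster 36.2 CPM (26.8 to 47.8).

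Wnt5b (ENSMUSG00000030170, chr6:119432531-119544347, minus strand), another ligand, had the same leading class. Its level was 111 CPM (105 to 117) in pre-HC-like cells, then 69.5 CPM in maturing chondrocyte-like and 67.9 CPM in HC-like cells, which overlapped. All 3 osteogenic classes lay between 18.4 and 20.9 CPM with overlapping intervals, and erythroid-like cells held 0.620 CPM. Unlike Wnt4, Wnt5b in HC-like cells exceeded the level in each osteogenic class. Over the 20 classes the log2 levels of Wnt4 and Wnt5b had a Pearson r of 0.92, the highest among the 45 pairs of the 10 genes. The classes share 1 library and differ in depth, so this describes a likeness of profiles.

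Wnt5a (ENSMUSG00000021994, chr14:28504750-28527448, plus strand), known for signalling without β-catenin, was highest outside the chondrogenic classes. Periosteal or tendon fibroblast-like cells held 65.7 CPM (56.7 to 75.6), split into 103 CPM (84.5 to 124) in the Aspn-led and 44.0 CPM (35.0 to 54.6) in the Tnmd-bearing cluster. Stromal progenitor-like cells had 35.5 CPM and immature osteoblast-like cells 30.8 CPM, with overlapping intervals. Within cartilage Wnt5a was again highest in pre-HC-like cells, at 25.4 CPM (22.6 to 28.4), against 7.90 CPM (6.11 to 10.1) in resting chondrocyte-like cells. The erythroid-like level was 0.496 CPM.

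Rspo3 (ENSMUSG00000019880, chr10:29452416-29535867, minus strand) marked the stromal end of the osteogenic cells. Stromal progenitor-like cells, rich in Cxcl12 at 7468 CPM, held 270 CPM (251 to 289) of Rspo3, and 63.0% (56.6 to 69.2) of the 238 that could be thinned kept a UMI, beside 79.0% of all 243 before thinning and 0.190% of erythroid-like cells after it. Immature osteoblast-like cells held 81.7 CPM (75.4 to 88.4), overlapping with proliferating chondrocyte-like cells at 73.0 CPM (64.5 to 82.3). Mature osteoblast-like cells had 4.20 CPM (2.92 to 5.84) and HC-like cells 6.17 CPM (3.87 to 9.34), also with overlapping intervals. The gene therefore had 2 regions of low level, at the end of hypertrophy and at the end of osteoblast maturation. It was the only gene of the 10 whose highest class exceeded the next by more than 2-fold, with a log2 ratio of 1.71 (1.56 to 1.86), where 17.3% of all 12186 genes tested did so. The stromal progenitor-like class also carried 30194 CPM of Hbb-bs, a red cell gene. When all osteogenic cells were clustered again, a sub-cluster of 209 cells led by Cxcl14 and Cxcl12, most but not all of them from this class, stood apart from a sub-cluster led by red cell genes and held 284 CPM (263 to 307) of Rspo3.

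**Figure D1:**
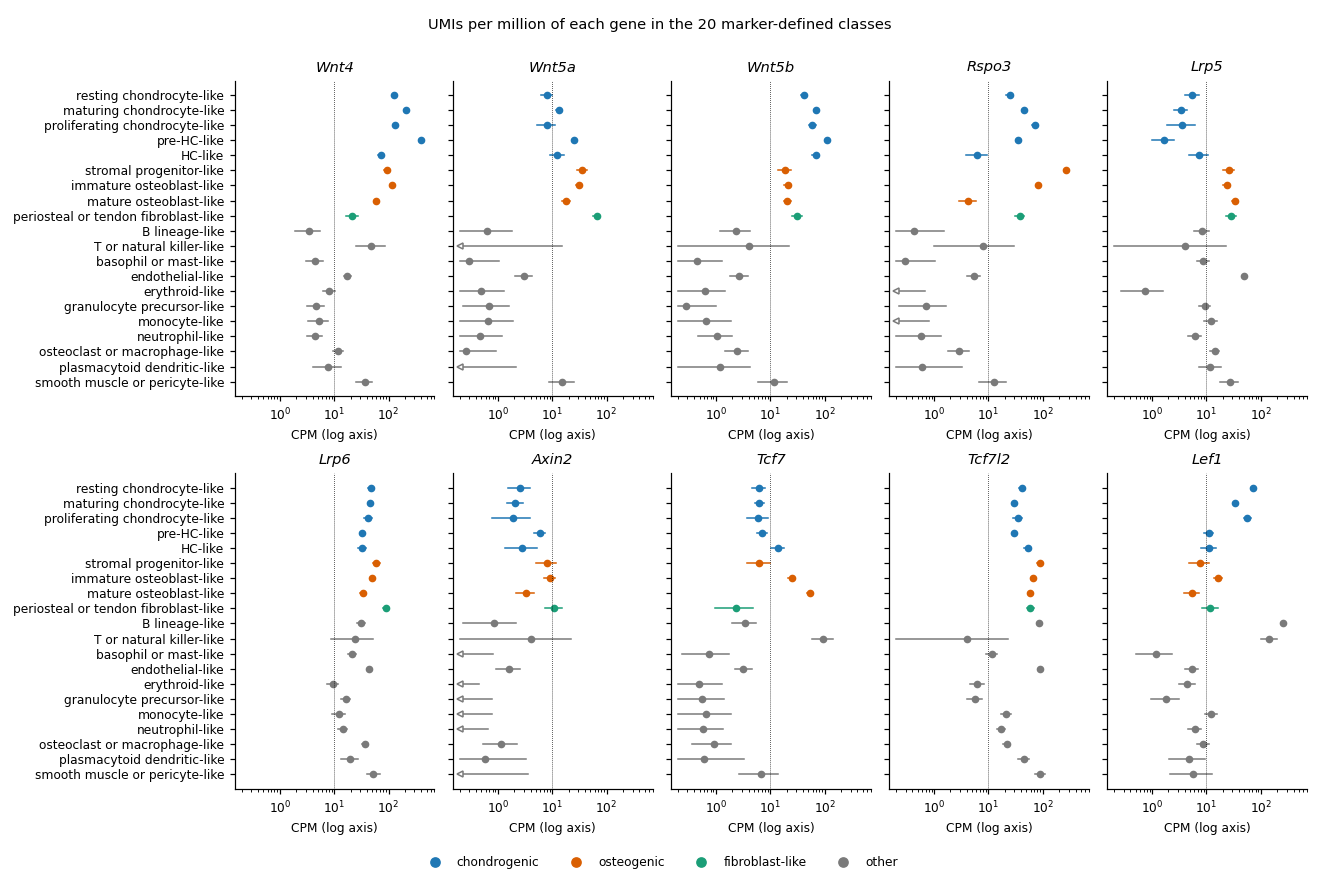
CPM of the 10 genes on a log axis in the 20 marker-defined classes. Points are class sums, lines are 95% exact Poisson intervals, the dotted line is 10 CPM, and open triangles at the left edge stand for 0 UMIs. Wnt4 and Wnt5b peak in pre-HC-like cells (398 and 111 CPM), Rspo3 in stromal progenitor-like cells (270 CPM) and Lef1 in B lineage-like cells (253 CPM).

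The co-receptors differed in how evenly they were spread. Lrp6 (ENSMUSG00000030201, chr6:134446476-134566965, minus strand) was at 10 CPM or more in 19 of 20 classes and, among chondro-osteogenic classes, lay between 32.8 CPM in HC-like and 59.8 CPM in stromal progenitor-like cells. Its highest level was in periosteal or tendon fibroblast-like cells at 89.3 CPM (78.9 to 101). Lrp5 (ENSMUSG00000024913, chr19:3584828-3686564, minus strand) was highest in endothelial-like cells at 48.9 CPM (44.7 to 53.4). Its osteogenic levels were 33.5 CPM (29.6 to 37.6) in mature osteoblast-like, 25.6 CPM in stromal progenitor-like and 23.6 CPM in immature osteoblast-like cells. In cartilage it lay between 1.65 CPM (1.01 to 2.55) in pre-HC-like and 7.29 CPM (4.76 to 10.7) in HC-like cells. The lowest of these overlapped the erythroid-like level of 0.745 CPM (0.273 to 1.62), so Lrp5 in pre-HC-like cells could not be told from it. The Penk-led resting cluster, with 16.2 CPM (10.2 to 24.6), was above the Krt16-led resting cluster at 3.43 CPM (2.20 to 5.10).

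Axin2 (ENSMUSG00000000142, chr11:108920349-108950783, plus strand), which encodes a scaffold of the complex that degrades β-catenin and is itself switched on by Wnt signalling, was scarce. It reached 10 CPM in 0 of the 8 chondro-osteogenic classes, whereas the other 9 genes did so in at least 1 class. The highest levels were 10.8 CPM (7.41 to 15.3) in periosteal or tendon fibroblast-like, 8.98 CPM (6.97 to 11.4) in immature osteoblast-like and 7.88 CPM (5.05 to 11.7) in stromal progenitor-like cells, which all overlapped. Mature osteoblast-like cells held 3.24 CPM (2.13 to 4.71), below immature osteoblast-like cells. Pre-HC-like cells at 5.85 CPM (4.57 to 7.38) were above maturing chondrocyte-like cells at 2.11 CPM (1.47 to 2.93). Erythroid-like cells had 0 UMIs, which at 3 counts allows up to 0.372 CPM.

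The 3 Tcf/Lef factors had different leading classes among the skeletal cells. Lef1 (ENSMUSG00000027985, chr3:131110471-131224356, plus strand) was highest in B lineage-like cells at 253 CPM (239 to 268), and in their Vpreb1-led cluster it reached 428 CPM (401 to 457). Among skeletal classes it led in resting chondrocyte-like cells at 70.8 CPM (65.2 to 76.7). Proliferating chondrocyte-like cells held 56.8 CPM and maturing ones 33.1 CPM, while pre-HC-like and HC-like cells held 11.0 and 10.9 CPM. Mature osteoblast-like cells, at 5.40 CPM (3.94 to 7.22), could not be told from erythroid-like cells at 4.47 CPM (3.13 to 6.18). Tcf7 (ENSMUSG00000000782, chr11:52252371-52283014, minus strand), which encodes TCF1, led instead in mature osteoblast-like cells. Its level was 6.01 to 7.17 CPM in the chondrogenic classes before hypertrophy, 13.7 CPM (10.2 to 18.2) in HC-like, 24.8 CPM (21.4 to 28.6) in immature osteoblast-like and 52.8 CPM (48.0 to 57.9) in mature osteoblast-like cells. Stromal progenitor-like cells stayed at 6.24 CPM (3.76 to 9.74). The highest value, 93.0 CPM, rested on 23 UMIs in 30 T or natural killer-like cells. Tcf7l2 (ENSMUSG00000024985, chr19:55741820-55933654, plus strand), which encodes TCF4, was the most even of the factors, with 10 CPM or more in 17 of 20 classes. Its levels were 89.0 CPM in endothelial-like, 88.9 CPM in smooth muscle or pericyte-like, 87.3 CPM in stromal progenitor-like and 86.1 CPM in B lineage-like cells, whose intervals overlapped from each to the next. In cartilage it lay between 29.8 CPM in pre-HC-like and 53.0 CPM (45.7 to 61.1) in HC-like cells.

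Within cartilage, the genes were also read along Col10a1, the collagen gene of hypertrophy, in the 1904 chondrogenic cells without regard to cluster. Wnt4 was 222 CPM in cells with no Col10a1 UMI, 257 CPM above 0 to 100 CPM of Col10a1, 383 CPM (360 to 407) above 100 to 1000, 192 CPM (178 to 208) above 1000 to 10000 and 74.5 CPM (62.9 to 87.5) above 10000. It thus had its peak in the middle of the range. Wnt5b went from 67.9 CPM with no Col10a1 UMI to 97.2 CPM above 1000 to 10000 and stayed at 94.7 CPM (81.6 to 109) above 10000. Rspo3 went down from 41.1 to 2.03 CPM and Lef1 from 40.3 to 5.06 CPM between the ends of the range. Tcf7l2 went from 32.7 to 72.9 CPM (61.5 to 85.9). Tcf7 had its largest value in the middle group, at 13.7 CPM (9.58 to 18.9), which overlapped the groups on either side. It was only 4.56 CPM (2.08 to 8.65, 9 UMIs) above 10000, where most cells were HC-like. The Tcf7 level of the HC-like class thus did not extend to its cells with the most Col10a1. The groups held 1293, 345, 107, 101 and 58 cells, and the last comprised 51 HC-like and 7 pre-HC-like cells.

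**Figure D2:**
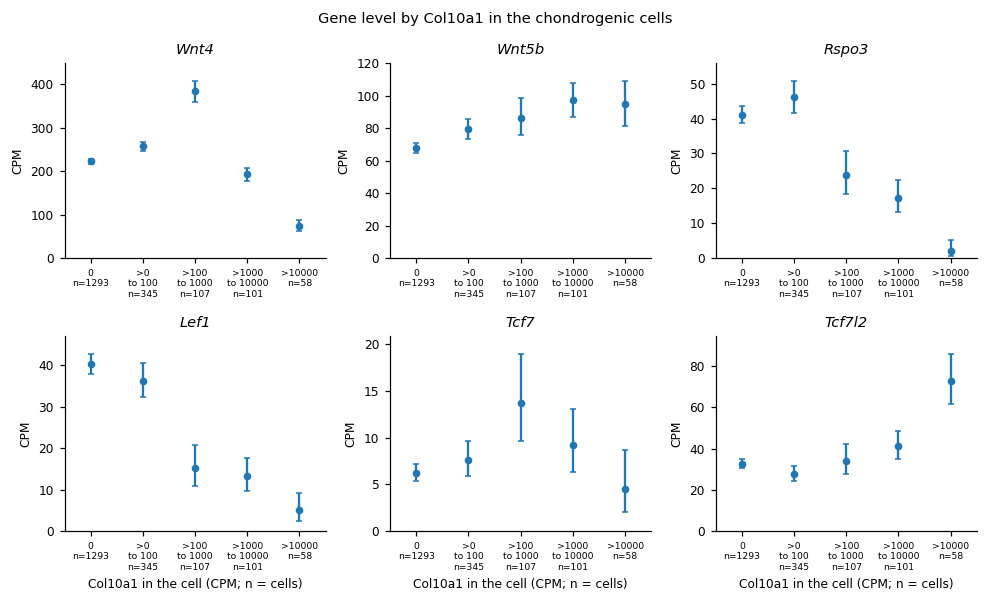
CPM of 6 genes (vertical axes, from 0) in the 1904 chondrogenic cells grouped by their own Col10a1 level (horizontal axes). Points are sums over cells and bars are 95% exact Poisson intervals. Wnt4 peaks at 383 CPM in the third group, Rspo3 and Lef1 are lowest and Tcf7l2 highest (72.9 CPM) in the cells with the most Col10a1.

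Pre-HC-like and resting chondrocyte-like cells were compared to ask how the genes stand before hypertrophy. Log2 ratios are of CPM with 1 CPM added, for genes with 10 CPM or more in either group, and a gene is counted where the ratio passes 2-fold. Of the 10 genes, 7 reached this minimum here. The ligands Wnt4 (1.63, interval 1.54 to 1.73), Wnt5a (1.57, 1.22 to 1.91) and Wnt5b (1.40, 1.24 to 1.57) were higher in pre-HC-like cells, where 4.69% of all 7295 genes tested were. Lef1 was lower (-2.58, -2.84 to -2.33), as were 10.4% of all genes. Against maturing chondrocyte-like cells the 3 ligands stayed within 2-fold, at 0.89 for Wnt4, 0.88 for Wnt5a and 0.67 for Wnt5b, where 3.07% of 6944 genes were higher, and Lef1 was lower (-1.51, -1.76 to -1.26), beside 3.08%. In HC-like over pre-HC-like cells, Wnt4 (-2.45, -2.63 to -2.27) and Rspo3 (-2.33, -2.86 to -1.79) were lower, beside 5.56% of 8024 genes. The median over those genes was 0.49, and relative to it Wnt5a and Wnt5b would also count as lower. The remaining 6 genes over the minimum lay between -0.98 for Wnt5a and 0.85 for Tcf7.

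Between osteogenic and chondrogenic cells as wholes, 9 of the 10 genes reached the minimum and Axin2 did not. Lrp5 was 28.3 against 3.63 CPM (log2 ratio 2.66, 2.45 to 2.87), Tcf7 34.1 against 7.09 CPM (2.12, 1.94 to 2.30) and Rspo3 77.8 against 37.4 CPM (1.04, 0.94 to 1.13). These 3 were higher past 2-fold, and so were 19.2% of 8387 genes. Wnt5b was 20.3 against 74.7 CPM (-1.83, -1.97 to -1.68), Lef1 10.1 against 34.3 CPM (-1.67, -1.87 to -1.47) and Wnt4 86.5 against 230 CPM (-1.40, -1.47 to -1.32). These 3 were lower, beside 8.94% of all genes. Tcf7l2 (0.94), Wnt5a (0.75) and Lrp6 (0.13) stayed within 2-fold. The median ratio of all genes was 0.25, and relative to it Rspo3 came to 0.79. This leaves 2 genes higher, while the 3 lower genes stay lower. With at most 5% mitochondrial UMIs per cell, 108 of 243 stromal progenitor-like, 166 of 568 immature osteoblast-like and 232 of 400 mature osteoblast-like cells remained. Rspo3 then came to 0.58 in the same classes. With new clusters at that limit only mature osteoblast-like cells stood for the osteogenic side, and it came to -3.07. The immature osteoblast-like over HC-like contrast gave Rspo3 3.53, Lrp5 1.57, Wnt5a 1.25 and Wnt5b -1.66, where 17.8% of 9020 genes were higher and 14.5% lower.

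Mature and immature osteoblast-like cells differed most in Rspo3. In mature over immature osteoblast-like cells, Tcf7 was higher (1.06, 0.82 to 1.30), beside 4.44% of 8377 genes. Rspo3 (-3.99, -4.39 to -3.59) and Lef1 (-1.43) were lower, beside 18.8%, with a median over all genes of -0.48, relative to which Lef1 would not count. Lrp5 was 33.5 against 23.6 CPM (0.48, 0.22 to 0.75) and Wnt5b 20.5 against 20.9 CPM (-0.02, -0.32 to 0.27).

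HC-derived osteogenic cells were those with more than 14 UMIs of WPRE, a sequence of the reporter transcript, and made up 294 of 1211 osteogenic cells. The limit is that of the study, which chose it to match the share of reporter-positive HCs found by experiment. WPRE was also found outside the lineage, with 1909 UMIs in the other named classes. Over the limit were 0 of 526 erythroid-like, 8 of 100 smooth muscle or pericyte-like and 6 of 517 resting chondrocyte-like cells. Of 107 HC-like cells only 89 were over it, so the other osteogenic cells may include some that are HC-derived. Of the 9 genes over the minimum, 0 were past 2-fold in either direction against the other 917 osteogenic cells, where 2.06% of 8093 genes were. Wnt5a had the widest difference, 16.0 against 30.1 CPM (-0.87, -1.19 to -0.56), followed by Tcf7 with 44.0 against 30.1 CPM (0.53, 0.31 to 0.76) and Wnt4 with 108 against 77.6 CPM (0.48, 0.33 to 0.62). Tcf7l2 was 65.3 against 67.6 CPM (-0.05, -0.22 to 0.13). For Wnt5a the count depended on the reporter call. With HC-derived cells defined by 1 tdTomato UMI or more it came to -1.14, past 2-fold. Among cells with at most 5% mitochondrial UMIs Rspo3 passed instead, at -1.15.

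Inside the immature osteoblast-like class, 122 HC-derived cells held 182 CPM of Wnt4 and the other 446 cells 87.9 CPM (log2 ratio 1.04, 0.85 to 1.23), where 1.53% of 8512 genes were higher past 2-fold. Axin2 was 4.35 against 10.7 CPM (-1.13, -1.97 to -0.29), where 2.26% were lower, and it rested on few UMIs. Only the other cells brought Axin2 to the minimum of 10 CPM. With at most 5% mitochondrial UMIs it came to -0.63 (-2.12 to 0.87), within 2-fold. Without the Mmp9-led sub-cluster described below it came to -1.28 (-2.35 to -0.22). Among cells with 10000 UMIs or more it came to -1.74 (-2.78 to -0.70). Wnt5a was 17.9 against 35.6 CPM (-0.96, -1.44 to -0.47). It passed 2-fold without the Mmp9-led sub-cluster (-1.20) and among cells with 10000 UMIs or more (-1.10). With at most 5% mitochondrial UMIs Wnt5a came to -0.96 (-1.96 to 0.04), an interval that includes 0. The HC-derived and other cells of the class differed in make-up. A sub-cluster led by Mmp9, Cd55 and Wisp2 held 61 of the HC-derived and 54 of the other cells, and a sub-cluster led by Aspn, Vcan and Postn held 2 and 191. Wnt5a and Axin2 were highest in that Aspn-led sub-cluster, at 48.7 and 14.3 CPM. The part of make-up in their ratios was not tested. Median depth was 12542.5 and 10846 UMIs, and the median mitochondrial share 5.93% and 5.71%. Within the Mmp9-led sub-cluster, Wnt4 was 266 CPM in 63 HC-derived and 241 CPM in 57 other cells (0.14, -0.16 to 0.44). The same sub-cluster held 168 CPM of Rspo3 in HC-derived and 80.9 CPM in other cells (1.04, 0.58 to 1.51). Lrp6 there was 86.5 against 39.6 CPM (1.11, 0.45 to 1.76). Wnt5a there was 21.6 against 11.6 CPM (0.85, -0.33 to 2.03), with the opposite sign to the whole class. Axin2 had only 4 and 6 UMIs there. The share of all genes past 2-fold was not computed within sub-clusters. In a sub-cluster led by Spp1 and Il11, Wnt4 was 163 CPM in 24 HC-derived and 73.4 CPM in 65 other cells (1.14, 0.66 to 1.61), and in cycling cells it was 77.7 CPM in 46 and 77.6 CPM in 115 cells (0.00, -0.40 to 0.40). These sub-clusters crossed the classes: only 23 of the 46 and 76 of the 115 cycling cells were immature osteoblast-like. Outside the Mmp9-led sub-cluster, within the class, Wnt4 was 130 against 69.6 CPM (0.89, 0.63 to 1.16). Among cells with at most 5% mitochondrial UMIs it was 135 CPM in 30 HC-derived and 83.2 CPM in 136 other cells (0.69, 0.31 to 1.07). Among cells with 10000 UMIs or more it was 180 against 88.1 CPM (1.02, 0.81 to 1.23), beside 1.04 without that limit. In mature osteoblast-like cells Wnt4 was 62.7 against 57.8 CPM (0.12, -0.14 to 0.38), and 0 of 7 genes tested were past 2-fold, beside 2.03% of 7206 genes. Lrp5 there was 23.1 against 38.8 CPM (-0.72, -1.11 to -0.34) and Lrp6 42.7 against 29.7 CPM (0.51, 0.18 to 0.84), so the co-receptors leaned opposite ways. In stromal progenitor-like cells the count was 0 of 8, beside 7.37% of 8692 genes, and Rspo3 was 315 against 260 CPM (0.28, 0.03 to 0.52).

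**Figure D3:**
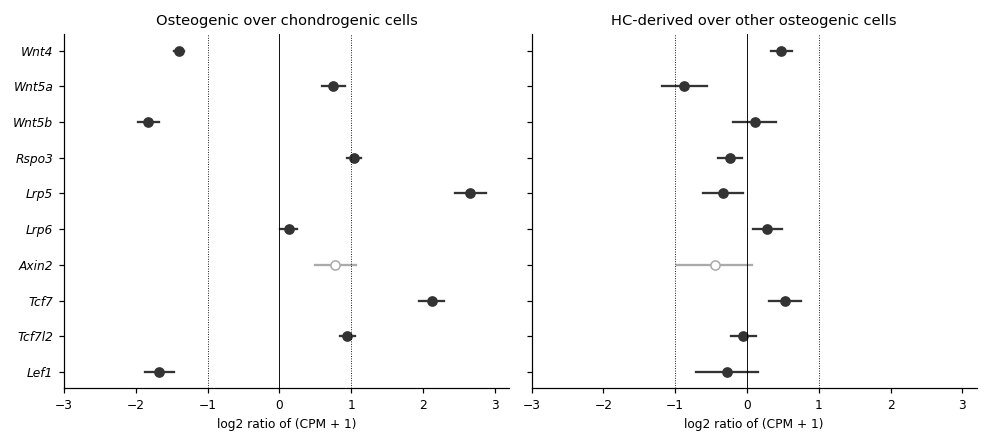
Log2 ratios of CPM with 1 CPM added for the 10 genes, osteogenic over chondrogenic cells on the left and HC-derived over other osteogenic cells on the right. Lines are 95% intervals from counting error, dotted lines mark 2-fold, and the open grey point is Axin2, under 10 CPM in both groups. On the left Lrp5 (2.66) and Wnt5b (-1.83) lie farthest from 0, and on the right no gene passes 2-fold.

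Clustering the osteogenic cells again, with the same Wnt genes left out, spread the 10 genes further. Rspo3 ranged across the sub-clusters from 284 CPM in the Cxcl14-led cells to 2.04 CPM (0.977 to 3.75) in the Bglap-led cells, and it had 0 UMIs in 31 cells led by Pdpn and Phex, with the osteocyte genes Dmp1 and Sost among their top genes. Wnt4 was 255 CPM (229 to 283) in the Mmp9-led sub-cluster and at most 107 CPM in 6 others, leaving aside the 4 mixed ones below. The Mmp9-led sub-cluster took no name. Its nearest marker list was that of HCs, but its Col2a1, at 493 CPM, was under the limit of 5000 CPM. Mmp9 itself is on the osteoclast list. The lowest Wnt4 level, 20.6 CPM (10.3 to 36.9), was in the Phex-bearing cells. In those cells Tcf7l2 stood at 152 CPM (121 to 189) and Wnt5b at 58.1 CPM (39.5 to 82.4), above the 51.0 and 12.6 CPM of the Bglap-led cells. Tcf7 was highest in the Bglap-led cells at 60.7 CPM (54.0 to 68.0), against 13.1 CPM (5.27 to 27.0) in the Phex-bearing cells. Wnt5a and Axin2 were highest in the Aspn-led cells, at 48.7 CPM (39.6 to 59.3) and 14.3 CPM (9.56 to 20.5). Their Wnt5a level overlapped that of the Cxcl14-led cells, 36.3 CPM (28.9 to 45.0). The Axin2 level of the Aspn-led cells was above the 2.85 CPM (1.56 to 4.79) of the Bglap-led cells. It overlapped that of 161 cycling cells, 12.5 CPM (8.78 to 17.4). A further 4 sub-clusters, with 152 cells, were led by chondrocyte, neutrophil, red cell or B cell genes. Leaving them out kept the 3 higher and 3 lower counts of the osteogenic contrast.

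**Figure D4:**
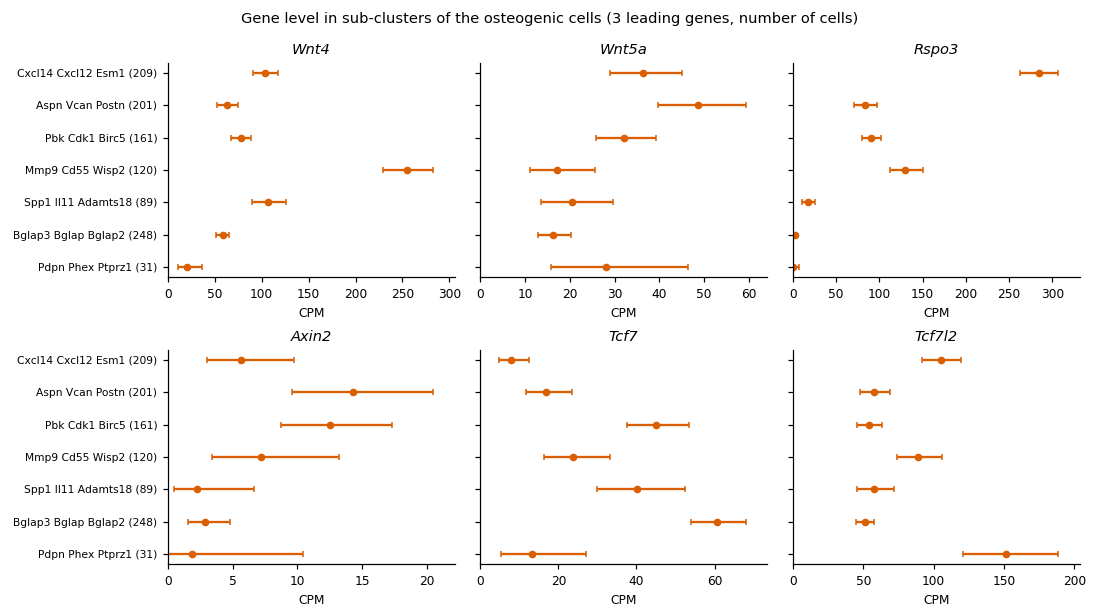
CPM of 6 genes (horizontal axes, from 0) in 7 sub-clusters of the osteogenic cells, each named by its 3 leading genes with its number of cells. Points are sums over cells and bars are 95% exact Poisson intervals. Rspo3 is highest at the top, in Cxcl14-led cells (284 CPM), Wnt4 in the Mmp9-led cells (255 CPM), Tcf7 in the Bglap-led cells (60.7 CPM) and Tcf7l2 in the 31 Pdpn- and Phex-led cells (152 CPM).

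The other genes of the pathway came from lists of ligands, R-spondins and their receptors, Wnt receptors, secretion, cytoplasmic and nuclear factors and targets, 68 genes in all. In osteogenic over chondrogenic cells 37 of them reached the minimum, of which 15 were higher and 2 lower past 2-fold, beside 19.2% and 8.94% of all 8387 genes, with a median of 0.63 beside 0.25 over all genes. These shares also apply to each list named next. Both secretion genes were higher: Wls, which carries Wnt proteins to the surface, at 239 against 46.2 CPM (2.35), and Porcn, which adds their lipid, at 24.5 against 6.34 CPM (1.79). Of 9 receptors tested, Fzd5 (31.9 against 3.72 CPM), Lrp4 (12.5 against 1.35 CPM) and Fzd1 (32.2 against 13.3 CPM) were higher and Fzd9 (-1.53) lower. Nuclear factors had 4 of 9 higher, led by the corepressor gene Aes at 214 against 10.0 CPM. Feedback and target genes had 5 of 7 higher, led by Tnfrsf19 at 54.5 against 1.35 CPM. Of 8 cytoplasmic genes, Axin1 alone passed 2-fold, at 30.5 against 14.5 CPM (1.03). Relative to the median of 0.25 over all genes, neither Axin1 nor Fzd1 would count, and the list counts were not taken relative to it. Of 16 further Wnt ligands 3 reached 10 CPM in a chondro-osteogenic class. Wnt11, at 31.5 CPM, was highest in pre-HC-like cells, like Wnt4, whereas Wnt10b (21.3 CPM) and Wnt7b (10.7 CPM) were highest in HC-like cells. In periosteal or tendon fibroblast-like cells, where Wnt5a peaked, Wnt16 (48.1 CPM), Wnt9a (23.0 CPM) and Wnt6 (12.5 CPM) also had their highest levels. Among R-spondins, Rspo2 followed Rspo3, with 22.7 CPM in stromal progenitor-like cells, and the receptor gene Lgr6 reached 33.1 CPM in HC-like cells. Of 36 list genes tested between HC-derived and other osteogenic cells, 2 were higher, Notum at 27.2 against 8.66 CPM (1.54) and Lgr6 at 12.5 against 4.74 CPM (1.23), and 0 were lower, beside 2.06% of all genes past 2-fold in either direction. Notum, which encodes a secreted enzyme that inactivates Wnt proteins, was also past 2-fold within immature (20.8 against 4.54 CPM) and mature osteoblast-like cells (36.4 against 16.2 CPM).

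For each gene the most alike profiles over the 20 classes were sought among 10306 or more genes with 20 CPM in some class, by Pearson r of log2(CPM + 1). Wnt4 was most like Shisa4 (0.95), Cyr61 (0.95) and S100b (0.94), and Wnt5b was most like Sobp (0.97), Nrbp2 (0.97) and Plcd1 (0.97). For Wnt5a these were Kctd15 (0.98), Evc2 (0.97) and Slc4a4 (0.97), and for Rspo3 Islr (0.95), Gpm6b (0.95) and Dclk1 (0.92). Lrp5 was nearest to Fmnl3 (0.91), Fhod1 (0.90) and Ano6 (0.88), and Lrp6 to Dip2c (0.94), Zfp580 (0.93) and Dexi (0.93). Axin2 paired with Gxylt2 (0.88), Clmp (0.88) and Fgfr2 (0.87), and Tcf7l2 with Uaca (0.90), Vangl2 (0.90) and Map4 (0.89). The lowest values were those of Tcf7, with Aak1 (0.86), Farp2 (0.84) and Ppm1e (0.82), and of Lef1, with Mcoln2 (0.79), H2-Q6 (0.77) and Gramd3 (0.77). The classes come from 1 library and differ in depth, so these values describe profiles only.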

How the data were processed

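The authors deposited raw UMI counts, for which Cell Ranger 3.1.0 and mm10 with added reporter sequences were used, and a second count matrix of exogenous sequences, joined here by barcode. The submitters' notes also name Seurat 3. Depth was 158281984 UMIs over 14181 barcodes (median 8235, range 500 to 85279).

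Barcodes were kept from 1600 genes upward, with mitochondrial UMIs up to 10% and ribosomal protein UMIs up to 50%. Python 3.11.15, scanpy 1.11.5, numpy 2.4.6 and scipy 1.17.1 were used. Counts were scaled to 10000 per cell, and 2000 variable genes, 30 components, 20 neighbours and Leiden resolution 1 (osteogenic cells 0.6) were taken. The 10 genes and the 68 list genes were kept out of the variable genes. Secreted Wnt antagonists such as Wif1 and Sost were not kept out. Clusters took names from 26 marker lists, of which those for cycling cells and leukocytes gave no name by themselves. A list needed at least 3 markers at 10 CPM. The list with the most markers among the top 10 genes by fold was taken, and ties went to the higher mean standardized marker level. Some clusters, such as the monocyte-like one, had 0 markers among their top 10 and were named by that level. Limits on collagen (5000 CPM) and Ptprc (50 CPM) were chosen with the clusters in view, so names may differ from the study's. Scrublet, given a doublet rate of 10%, marked 588 barcodes (4.15%), which were kept. The paper excluded clusters with Ptprc, which are shown here as classes.

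The text names the 10 genes, list genes with 10 CPM in a class that were past 2-fold or led their list, and the 3 genes most like each. The 10 genes and the lists were chosen with earlier results of these data known. The ratio and its interval were tried on counts simulated with Poisson error alone. That trial could not show whether the intervals hold where real cells vary more. Positions come from GENCODE M21 and promoters from RefSeq (GRCm38.p6).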

Additional observations from a re-analysis of the deposited data

Results flagged for a closer look

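The matrix of exogenous sequences held counts that the comparisons did not use. EGFP had 64 UMIs in 57 barcodes, of which 26 UMIs were in chondrogenic, 31 in osteogenic, 0 in other named and 1 in unnamed cells. CRE had 6 UMIs in 6 barcodes, 3 of them in chondrogenic cells. Both totals are above the limit of 3 counts, and there is no control library to set them against. For comparison, WPRE had 22074 UMIs and tdTomato 391.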

How the results depend on the processing

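No paired analysis was possible because the series analysed here is 1 library and no result comes from a test between samples. The settings varied were the gene and mitochondrial limits, the number of variable genes, the Leiden resolution, Scrublet-marked cells, the mean over cells in place of the sum, the added CPM, the minimum of CPM and the reporter call. Median centring, leaving out mixed sub-clusters, keeping the main classes while leaving out Scrublet-marked cells or those over 5% mitochondrial UMIs, and counting fibroblast-like cells as osteogenic were chosen after seeing the data.

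The number of the 10 genes at 10 CPM or more in a chondro-osteogenic class stayed within 1.5 times 9, and that lower in osteogenic cells within 1.5 times 3, under each setting. The number higher was 5 in place of 3 with the mean over cells, where Wnt5a (1.22) and Tcf7l2, just past 2-fold, joined. Rspo3 dropped below 2-fold with 10 CPM added (0.89). Rspo3 was reversed, at -3.07, with at most 5% mitochondrial UMIs and new clusters, where no stromal progenitor-like or immature osteoblast-like class was named, so that only mature osteoblast-like cells stood for osteogenic cells. The number past 2-fold between HC-derived and other osteogenic cells was 1 in place of 0 with the tdTomato call (Wnt5a, -1.14), with fibroblast-like cells counted (Wnt5a, -1.11) and with at most 5% mitochondrial UMIs in the main classes (Rspo3, -1.15). The number whose highest class was past 2-fold over the next, 1 in the report, was 2 with at least 1000 or 2000 genes, with the mean over cells and with Wnt genes among the variable genes, 3 with at most 20% mitochondrial UMIs, 3000 variable genes, Scrublet-marked cells left out or the main classes at 5%, and 4 with at most 5% and new clusters. The cause was not tested. Between 7 and 10 of the 10 genes kept their highest class under each setting. At resolution 0.6 no pre-HC-like class was named, and Wnt4 and Wnt5b were highest in HC-like cells. That HC-like class held 269 cells, beside 107 in the report. An immature osteoblast-like class was missing there too, as it was under the 1000-gene limit and among new clusters at 5%. New clusters without Scrublet-marked cells lacked both an immature osteoblast-like and an HC-like class. With 3000 variable genes no HC-like class was named. The pre-HC-like class held 405 cells in the report, 245 under the 1000-gene limit and 910 with 3000 variable genes. Results for these classes are those of the main clustering. With 1 library, differences between animals remained unmeasured, and Axin2, at 0 to 71 UMIs a class, was limited by depth.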
